A study of Rattus norvegicus with 2 samples.

Results

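The nuclear genes of the oxidative phosphorylation machinery were described complex by complex in rat (Rattus norvegicus) embryonic stem cells. Members were taken by gene symbol from the deposited expression table: symbols that begin with Ndufa, Ndufb, Ndufc, Ndufs or Ndufv and a digit, Sdha to Sdhd, and symbols that begin with Uqcr, Cox4 to Cox8 or Atp5. This rule took 85 rows for 84 genes, out of 23716 rows for 23282 genes. Rows of the same gene were summed. The rule used names and no measured value, so levels are described here for every member. It placed 37 genes in complex I, 4 in complex II, 8 in complex III, 17 in complex IV and 18 in complex V. Of the 84 genes, 73 encode structural subunits and 11 do not. These 11 are 4 genes that RefSeq lists as pseudogenes, 3 others named as copies of a subunit gene, and Cox7a2l, Cox4nb, Atp5s and Atp5sl, whose products are not structural subunits of the complexes. Ndufa4, once assigned to complex I, is counted with complex IV.

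RNA was sequenced from 2 libraries that the series design calls biological replicates. Both came from the line DA-EC8/Rrrc of the Dark Agouti strain, wild type, at passage 30 and labelled with a normal karyotype. The cells grew in 2i medium, which holds inhibitors of MEK and GSK3, and received no treatment. Both libraries form 1 group from 1 line, so no contrast between conditions exists, no p-value is given, and the spread is that between these libraries. Whether they came from separate cultures is not stated in the labels.

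Oxidative phosphorylation takes place at the inner mitochondrial membrane. Complex I takes electrons from NADH and complex II takes them from succinate, and ubiquinone carries them to complex III. Cytochrome c passes them on to complex IV, which reduces oxygen, and complex V makes ATP from the proton gradient that complexes I, III and IV build. Most subunits are nuclear genes, while the mitochondrial genome encodes several core subunits, which were not analysed here. Pluripotent stem cells are known for high glycolysis, and naive cells are known to respire as well.

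Levels are in RPKM, the reads of a gene divided by the length of its model in kilobases and by the reads of the library counted in units of 1000000, so that genes can be compared per length. Values are means ± SD over the 2 replicates unless a replicate is named. Steps in the deposited values correspond to totals of 2991184 reads in replicate 1 and 3050685 in replicate 2. At these totals 3 reads in a model of 500 bp are worth 2.01 and 1.97 RPKM, a floor for counting error only. All 6 embryonic stem cell markers tested (Pou5f1, Sox2, Nanog, Esrrb, Utf1 and Tdgf1) reached 1 RPKM, with summed levels of 1941 and 1934 RPKM. Of 8 fibroblast or feeder cell markers 3 reached 1 RPKM, and the sums were 6.04 and 10.9 RPKM. The 3 were Col1a1 at 3.39 and 6.02 RPKM, Col3a1 at 1.32 and 3.16 RPKM, and Thy1 at 1.01 and 1.73 RPKM. Each was higher in replicate 2. Col1a2, Lum and S100a4 were listed at 0. None of 8 muscle markers reached 1 RPKM, with sums of 1.17 and 0.967 RPKM. Among 6 testis germ cell markers Odf1 alone was above 0, at 1.43 and 1.4 RPKM. In bulk RNA a change in the number of cells of a type and a change in RNA per cell cannot be told apart.

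Most members were expressed, and many were among the more abundant transcripts of the table. With detection set at a mean of 1 RPKM or more, 75 of 84 members were detected (46.4% of all genes listed were), and 44 had a mean of 100 RPKM or more (4.003% of all genes). The median over all members was 109 RPKM in the first replicate and 105 RPKM in the second, a mean of 107 ± 2.57 RPKM. Over the 73 structural subunits it was 133 ± 0.321 RPKM. The 10814 detected genes of the whole table had a median of 16.7 ± 0.151 RPKM. Of the total RPKM, members held 2.58% in replicate 1 and 2.56% in replicate 2. Among the 1000 highest genes 45 were members, and among the 100 highest 3 were, all from complex V.

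The complexes differed in their typical level. On the log2(RPKM + 1) scale the member median was 7.53 ± 0.05 for complex II, 7.50 ± 0.01 for complex IV, 7.30 ± 0.06 for complex V, 6.72 ± 0.12 for complex III and 6.38 ± 0.10 for complex I. In RPKM the same medians were 184 ± 6.87, 180.3 ± 1.64, 157 ± 6.13, 106 ± 9.23 and 82.2 ± 5.72. The median of complex II and that of complex IV did not differ beyond their spread. Complex IV stood 1.12 ± 0.11 above complex I on the log2 scale, and complex V stood 0.93 ± 0.04 above it. Both gaps exceeded the spread between replicates. They depend on how members are summarised. With the mean over members, which low genes pull down, complex IV minus complex I was -0.10 ± 0.08 and complex III minus complex I was -0.24 ± 0.01, while complex V minus complex I was 0.76 ± 0.06. With subunits matched by RefSeq gene identifier rather than by symbol, complex IV stood 0.38 ± 0.14 above complex I. Complex II, with all 4 genes at 86.7 RPKM or more, was highest in the mean over all members. Its median was above that of complex IV in replicate 1, at 189 against 179 RPKM. In replicate 2 it was below, at 179 against 181 RPKM. With structural subunits only, complex IV at 7.58 was above complex II at 7.53.

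**Figure D1:**
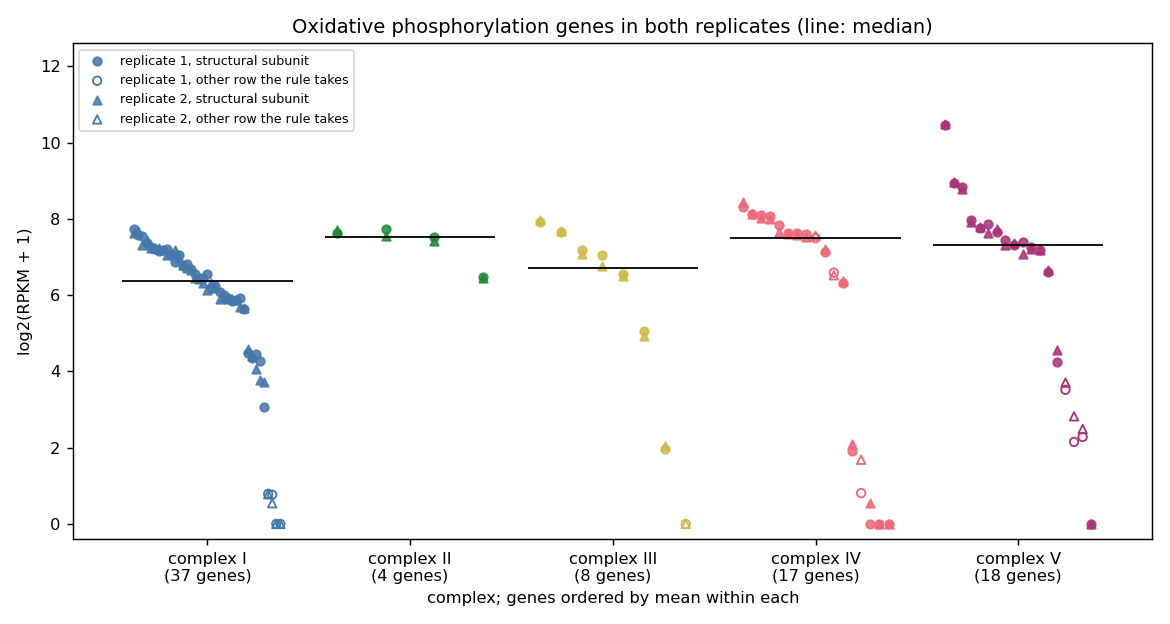
Level of each of the 84 genes on the log2(RPKM + 1) scale by complex, with genes ordered by mean within a complex. Circles are replicate 1, triangles replicate 2, open marks the 11 members that are not structural subunits, and the line is the median of each complex. Complexes I, III, IV and V each hold a tail of low genes, and complex II holds none.

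Motifs of transcription factors were found in the start regions of a minority of members. RefSeq windows on the GRCr8 build, from 250 bases before to 50 bases after a gene's start, were searched on both strands for GCGCATGCG (the NRF1 motif), CCGGAAGTG (GABPA) and AAGATGGCG (YY1). NRF1, GABPA and YY1 are transcription factors known to act at nuclear genes for mitochondrial proteins. Of 84 members 69 had a window, and 52 of these held none of the 3 motifs. The 5 members with an NRF1 motif in the last 100 bases before the start are printed with the motif in capitals, all 5′ to 3′ on the strand of the gene. They lie at chr9:1637504-1637563 (plus strand), chr8:118468163-118468222 (plus strand), chr7:135678239-135678298 (minus strand), chr14:1464760-1464819 (plus strand) and chr11:44657504-44657563 (minus strand) in GRCr8. These positions are not those of the expression table, which uses rn5.
Ndufa11: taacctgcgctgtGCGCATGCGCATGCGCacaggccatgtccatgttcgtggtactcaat
Uqcrc1: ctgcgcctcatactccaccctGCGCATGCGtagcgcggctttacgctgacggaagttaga
Atp5g2: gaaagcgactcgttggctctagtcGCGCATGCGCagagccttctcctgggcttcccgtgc
Atp5i: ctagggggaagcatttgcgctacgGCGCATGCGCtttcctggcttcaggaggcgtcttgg
Atp5o: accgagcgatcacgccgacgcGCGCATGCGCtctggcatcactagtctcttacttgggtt

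The NRF1 letters are nearly their own reverse complement, so a run with an added base gives a match on each strand. That was the case in Ndufa11, where matches overlap, and in Atp5g2, Atp5i and Atp5o. The sixth member with an NRF1 motif was Atp5l, with the match near the far end of its window. The YY1 motif was shown by 9 members, on the strand of the gene in all 9, and in 7 of them it began from 4 to 36 bases after the start. Complex I genes made up 6 of the 9, and 31 of the 69 members with a window. The stretches of 3 of them, at chr4:161374141-161374170 (minus strand), chr1:253362896-253362925 (minus strand) and chr7:10110475-10110504 (minus strand) in GRCr8, show its place beside the annotated start, again with the motif in capitals.
Ndufa9: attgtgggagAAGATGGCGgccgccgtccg
Ndufb8: ggagaaggtgAAGATGGCGgcgtcccgggc
Ndufs7: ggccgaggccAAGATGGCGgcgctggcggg

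Ndufa2, Ndufa6 and Ndufs4 were the other complex I genes with it, and Atp5j, Atp5j2 and Uqcrc1 were the remaining members. The GABPA motif occurred in the windows of Cox5b, Uqcrh and Uqcrq. As shares of members with a window, 8.70% held the NRF1 motif, 4.35% the GABPA motif, 13.0% the YY1 motif and 24.6% any of them. Among 27457 genes with a window the shares were 1.70%, 2.08%, 1.99% and 5.45%. Among genes with means of 100 RPKM or more they were 5.47%, 5.22%, 6.36% and 15.5%, and among mitochondrial ribosomal protein genes 8.93%, 7.14%, 16.1% and 30.4%. The median GC content was 56.3% in member windows and 60.6% in windows of genes at 100 RPKM or more. A match is a run of letters, not a measured binding site. The genes of these factors were themselves listed at 39.2 and 43.0 RPKM for Nrf1, 26.9 and 28.6 RPKM for Gabpa, and 54.9 and 49.9 RPKM for Yy1.

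Complex I, the NADH dehydrogenase, is built from core subunits that carry the redox centres and from a larger number of accessory subunits. Its 7 nuclear core genes were all detected and lay within a narrow range of means, from 82.5 to 151 RPKM. Ndufv1 binds NADH and its flavin (chromosome 1, 226124944 to 226129979 in rn5). It was highest of the core, at 153.6 RPKM in the first replicate and 149.3 RPKM in the second, the order in which values are paired throughout. Its iron-sulfur partner Ndufv2 was at 143 and 144 RPKM, and Ndufs1, the largest core subunit, was at 132 and 135 RPKM. The order of Ndufv1, Ndufv2 and Ndufs1 was the same in both replicates. Ndufs7, Ndufs3 and Ndufs8, core genes whose products carry iron-sulfur centres or line the path to ubiquinone, were lower. Ndufs8 was the lowest of the core, at 86.3 and 78.7 RPKM. Ndufs3 at 86.4 and 84.7 RPKM was close to it in replicate 1.

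Accessory subunits of complex I ranged more widely, with means from 9.80 to 206 RPKM over the 26 that are not pseudogene rows. Their median was 71.9 ± 1.73 RPKM, against 101 ± 0.755 RPKM over the core, a gap of 0.48 ± 0.02 on the log2 scale. With the 2 pseudogene rows counted in, the gap was 0.59 ± 0.05. Ndufa11 and Ndufb8, subunits of the membrane arm, led the whole complex. Ndufa11 was at 213.7 and 198.6 RPKM, and Ndufb8 was at 190.4 and 203.7 RPKM. The order of these 2 was not the same in the replicates. Ndufb7, another membrane arm subunit, followed at 186 and 159 RPKM. Both Ndufa11 and Ndufb8 are among the genes whose start regions are printed with a motif, and the window of Ndufb7 held none. Of the 31 complex I members with a window, 7 held a motif, at means from 55.1 RPKM (Ndufa2) to 206 RPKM (Ndufa11). Whether a motif goes with level was not tested. Of 37 complex I members, 15 reached 100 RPKM, 13 lay from 30 to under 100 RPKM and 5 from 1 to under 30 RPKM. The lower of these were Ndufv3, Ndufa10, Ndufs5, Ndufb3 and Ndufb4. Ndufb4, a membrane arm subunit, was at 7.35 and 12.2 RPKM, which correspond to about 10 and 17 reads. Ndufb3, also of the membrane arm, was at 18.2 and 12.8 RPKM, and Ndufs5, on the side of the intermembrane space, at 21.1 and 15.6 RPKM.

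Under 1 RPKM complex I had 4 rows. Ndufa10l1, a copy of Ndufa10, was at 0.699 and 0.457 RPKM, and Ndufb4l1, a copy of Ndufb4, was listed at 0 in both replicates. The row named Ndufa13 was at 0.728 and 0.714 RPKM, and the row named Ndufs6 was listed at 0 in both. Neither of the last pair is the intact gene in current RefSeq. Their identifiers belong to Ndufa13-ps1 and Ndufs6-ps1, and their loci span only 459 and 415 bp. The identifier that RefSeq gives to Ndufa13 was found on the row LOC100911483, at 12.4 and 13.9 RPKM. That of Ndufs6 was found on LOC679739, which was listed at 0 in both replicates. Another row named like Ndufs6, LOC100912599, was at 0.667 and 0 RPKM. A listed 0 does not show that the Ndufs6 gene was not transcribed. The intact Ndufa13 gene was thus detected under another symbol. Ndufb1, under LOC100912357, was at 7.60 and 5.58 RPKM, and Ndufab1, the acyl carrier subunit, was at 31.6 and 33.4 RPKM.

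Complex II is succinate dehydrogenase, the only complex of the chain that is also an enzyme of the citric acid cycle, and all its subunits are nuclear. Sdha, the flavoprotein that oxidises succinate (chromosome 1, 32971779 to 32996749 in rn5), was at 197 and 207 RPKM. Sdhb, the iron-sulfur subunit, was at 212 and 188 RPKM. Their order changed between replicates, and their means of 202 ± 7.01 and 199.6 ± 17.1 RPKM did not differ beyond the spread. The membrane anchors were unequal. Sdhd was at 181 and 171 RPKM, and Sdhc was at 87.9 and 85.6 RPKM, so Sdhd stood 2.06-fold and 2.00-fold above Sdhc. Sdhc and Sdhd contribute 1 copy each to a complex, as do Sdha and Sdhb.

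Complex III passes electrons from ubiquinol to cytochrome c. The large core proteins led it. Uqcrc1 (chromosome 8, 117030932 to 117042820 in rn5) was at 241 and 252 RPKM, and Uqcrc2 was at 199 and 205 RPKM. Uqcrc1 was higher than Uqcrc2 in both replicates. Uqcrfs1, the Rieske iron-sulfur protein and the catalytic member taken by the rule, was at 93.7 and 90.4 RPKM. Cytochrome c1, encoded by Cyc1 and outside the rule, was at 234.3 and 234.0 RPKM. Among the small subunits Uqcr11 was at 145 and 133 RPKM, and Uqcrh, the hinge protein that binds cytochrome c1, was at 130.4 and 108 RPKM. Uqcrq, a small membrane subunit, was lower at 32.2 and 29.6 RPKM. Uqcrb, which faces the matrix, stood far lower, at 2.88 and 3.14 RPKM, and the pseudogene row Uqcrb-ps1 was listed at 0. Uqcr10, under LOC685322, was also low at 1.86 and 1.82 RPKM, at a locus of 180 bp.

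Complex IV, cytochrome c oxidase, has nuclear subunits that come as general isoforms and as isoforms of muscle, lung or testis. Most general isoforms were high, with 10 genes at a median of 205 ± 12.1 RPKM and 9 of them at 100 RPKM or more. Cox7a2, at a mean of 3.05 RPKM, was low, and Cox6b1, listed under another symbol, is not among the 10. Cox6a1, the general isoform of subunit 6a, led at 315 and 345 RPKM. Cox5b, a zinc-binding subunit, was at 281 and 279 RPKM, and Cox7c was at 275 and 258 RPKM. Cox4i1, the general isoform of the regulatory subunit 4, was at 267 and 253 RPKM. Cox6c at 229.6 and 200.3 RPKM, Cox8a at 197 and 192 RPKM, Cox5a at 197 and 191 RPKM and Cox7b at 193 and 181 RPKM followed. Cox8a and Cox5a had means of 194 ± 3.51 and 194 ± 3.87 RPKM and could not be ordered. Ndufa4 was at 139 and 146 RPKM.

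The isoforms of other tissues were mostly near 0. Cox8b, the heart and muscle isoform of subunit 8, and Cox8c, its testis isoform, were listed at 0 in both replicates. Cox4i2, the lung isoform of subunit 4, was listed at 0 in replicate 1 and at 0.466 RPKM in replicate 2, where Cox4i1 was 253 RPKM. Cox7a1, the muscle isoform under LOC687508, was listed at 0 in both. Cox7b2, under LOC100361960 and known from testis, was at 3.78 and 1.85 RPKM, against 193 and 181 RPKM for Cox7b. Ndufa4l2, under LOC100362331 and induced by low oxygen in other cells, was at 8.87 and 9.40 RPKM. Ndufa4 stood 15.7-fold and 15.6-fold above it. Cox6a2 was not analysed here.

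The exception among the tissue isoforms was in subunit 6b. Cox6b2, known as a testis isoform (chromosome 1, 75873172 to 75874397 in rn5), was at 79.4 and 81.4 RPKM. The general isoform Cox6b1, under LOC688869, was at 20.0 and 18.2 RPKM. Cox6b2 was thus 3.96-fold and 4.48-fold above Cox6b1, a difference of 2.02 ± 0.12 on the log2 scale. Of the testis germ cell markers, Odf1 alone was above 0, at 1.43 and 1.4 RPKM, and the other 5 were listed at 0. Cyct, the testis form of cytochrome c, showed the same order, at 56.7 and 54.1 RPKM against 1.11 and 1.64 RPKM for the somatic gene Cycs. In the 7a family the general isoform Cox7a2 was low, at 2.79 and 3.31 RPKM. Cox7a2l, a relative that joins complexes III and IV in supercomplexes, was at 179 and 187 RPKM, which is 64.2-fold and 56.5-fold above Cox7a2. Whether reads shared between copies moved these values was not tested.

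**Figure D2:**
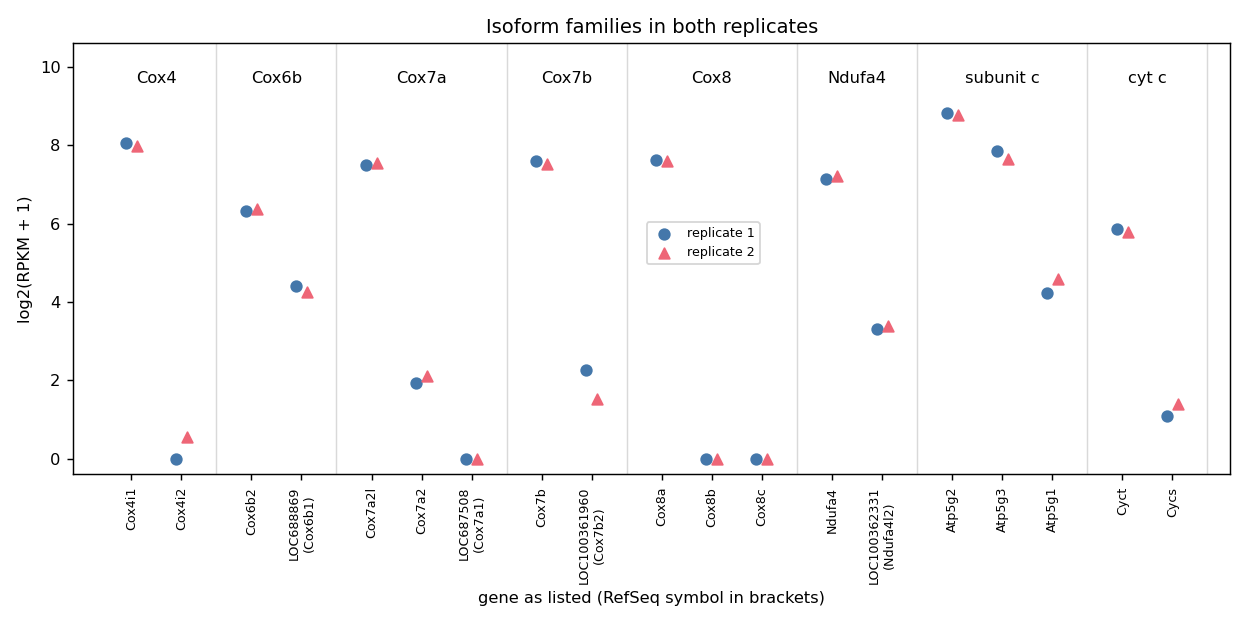
Level of isoforms on the log2(RPKM + 1) scale in replicate 1 (circles) and replicate 2 (triangles), grouped by subunit. The general isoform is higher in the Cox4, Cox7b, Cox8 and Ndufa4 families, while Cox6b2 stands above Cox6b1 and Cyct above Cycs.

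Complex V, the ATP synthase, joins a catalytic F1 head to a membrane part through a rotor and a stalk. Atp5b, the catalytic beta subunit (chromosome 7, 2484095 to 2490338 in rn5), was the highest member at 1410.0 and 1438 RPKM, rank 7 of all genes. Atp5a1, the alpha subunit, was at 487 and 501 RPKM. Alpha and beta are present in equal numbers in the enzyme, and the level of Atp5b was 2.90-fold and 2.87-fold that of Atp5a1. The single-copy subunits of the head and rotor were lower. Atp5e, the epsilon subunit, was at 215 and 219 RPKM, Atp5c1, the gamma subunit, at 172 and 159 RPKM, and Atp5d, the delta subunit, at 157 and 165 RPKM. The median over these 5 F1 genes was 217 ± 3.27 RPKM.

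The c ring of the rotor is made from copies of a single mature protein encoded by Atp5g1, Atp5g2 and Atp5g3. Atp5g2 was highest at 455 and 438 RPKM, Atp5g3 followed at 232 and 198 RPKM, and Atp5g1 was at 17.9 and 22.8 RPKM. This order held in both replicates, with Atp5g2 1.96-fold and 2.21-fold above Atp5g3 and 25.5-fold and 19.2-fold above Atp5g1. Among membrane subunits that support the dimer, Atp5i was at 251 and 239 RPKM, Atp5l at 199 and 214 RPKM, and Atp5j2 at 166 and 134 RPKM. The peripheral stalk genes Atp5o and Atp5j, which hold the head still, had means of 149.1 ± 3.20 and 144 ± 0.368 RPKM, and Atp5h was at 98.3 ± 1.57 RPKM. Atp5f1, which encodes the b subunit of that stalk, was listed at 0 in both replicates, as was LOC100911417, a neighbouring row named like it. The b subunit is part of every complete ATP synthase, and a listed 0 does not show that its gene was not transcribed. The F1 median stood 0.59 ± 0.03 above that of the 3 stalk genes other than Atp5f1 on the log2 scale, and 0.86 ± 0.01 above it with Atp5f1 counted at 0. Atp5sl at 10.4 and 12.0 RPKM and Atp5s at 3.86 and 4.61 RPKM, which are not structural subunits, were low, and the pseudogene Atp5hl1 was at 3.44 and 6.07 RPKM. The inhibitor gene Atpif1, outside the rule, was high at 374 and 356 RPKM. Usmg5 was at 2.34 and 3.49 RPKM, and LOC100912557, RefSeq Atp5mpl, was at 1.42 and 1.39 RPKM.

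Low members and named copies in RefSeq were set side by side, since reads can be split between copies. Among 69 subunit genes that are not tissue isoforms, 9 lay under 30 RPKM, and all 9 have at least 1 named copy, with a median of 3 copies. Of the 60 at 30 RPKM or more, 30 have a named copy, with a median of 0.5. The first gene above that boundary, Uqcrq at 30.9 ± 1.84 RPKM, has no named copy, so the count of 9 in 9 depends on where the boundary lies. A copy did not always go with a low level. Ndufb4 has 11 named copies and was low, and Atp5l also has 11 and was at 206 ± 10.3 RPKM. Across the 69 genes Spearman's rho of copies and mean level was -0.16, a description, since these genes come from the same libraries. How the copies bear on the values was not tested, and the boundary of 30 RPKM was chosen after the values were seen.

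**Figure D3:**
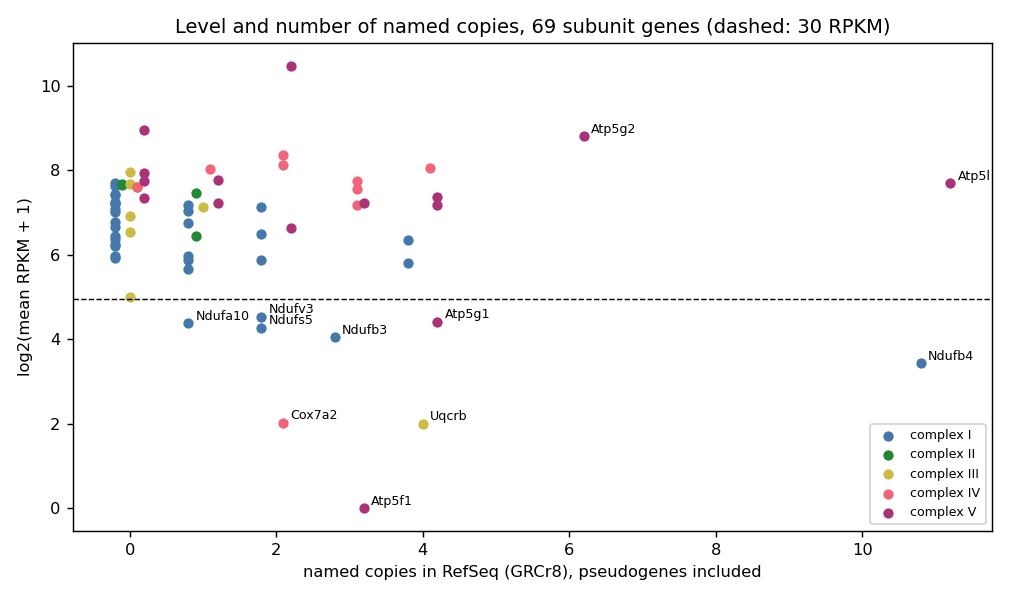
Mean level on the log2(RPKM + 1) scale against the number of named RefSeq copies for 69 subunit genes, coloured by complex and shifted slightly sideways by complex. The 9 genes below the dashed line at 30 RPKM all have a copy, and Atp5l with 11 copies lies well above it.

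The replicates were close for most members. Of the 75 detected members, 3 differed by more than 1.5-fold on the RPKM + 1 scale (4.26% of all detected genes did). These were Cox7a2l2 at 0.751 and 2.21 RPKM, Atp5hl1 at 3.44 and 6.07 RPKM, and Ndufb4. All 3 were higher in replicate 2. The first is worth about 1 and 3 reads, the second about 5 and 9 reads and Ndufb4 about 10 and 17 reads. Counting error thus limits all 3. With a minimum of 10 RPKM no member passed 1.5-fold. The share of all genes past it at that minimum is not given here, and of all 932 genes at 100 RPKM or more none passed it. The log2 ratio of replicate 2 over replicate 1 had a median of -0.02 and an SD of 0.21 over the 75 members. Over all 10814 detected genes these were -0.02 and 0.27. Of the members 34 were higher in replicate 2 and 41 in replicate 1, and of all 10814 genes 4962 and 5852 were. In the other direction, the 3 members that stood highest in replicate 1 relative to replicate 2 were of complex I and stayed under 1.5-fold. Ndufb3 was at 18.2 and 12.8 RPKM, Ndufa5, a matrix arm subunit, at 92.5 and 69.0 RPKM, and Ndufs5 at 21.1 and 15.6 RPKM.

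Among genes at 100 RPKM or more, the SD of the log2 ratio was 0.12 over 44 members and 0.09 over all 932 genes of that level, members included. Ndufb10, a membrane arm subunit of complex I, at 115 and 143.5 RPKM had the highest ratio among these 932 genes, 0.32, and Atp5j2 at 166 and 134 RPKM had the lowest, -0.31. Their reads were about 235 and 299, and about 230 and 189. This comparison was made after the values were seen and has no test.

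**Figure D4:**
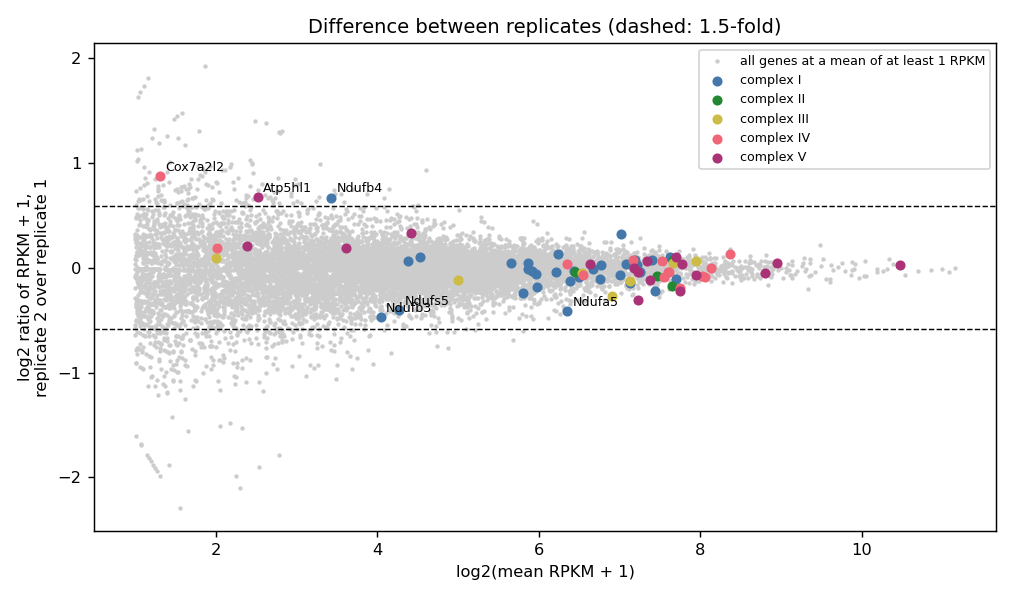
Log2 ratio of replicate 2 over replicate 1 against log2 of the mean RPKM + 1 for all detected genes (grey) and members by complex (colours). Dashed lines mark 1.5-fold, and the 3 members past them are at low levels.

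Beside other mitochondrial and metabolic genes the members were intermediate to high. Glycolysis, with 15 genes, had a median of 254 ± 0.772 RPKM, above that of the members by 1.24 ± 0.04 on the log2 scale and above that of the structural subunits by 0.93. Its gene means ran from 6.85 RPKM (Tpi1) and 23.2 RPKM (Gapdh) to 2287 RPKM (Aldoa). Whether reads shared between copies moved the values of these lists was not tested. The citric acid cycle, without complex II, had a median of 89.5 ± 2.82 RPKM over 12 genes, and the members stood 0.26 ± 0.08 above it and the structural subunits 0.57 ± 0.04. Mitochondrial ribosomal proteins were lower, with a median of 43.1 ± 1.06 RPKM over 71 genes, and the members stood 1.29 above them and the structural subunits 1.60 ± 0.04. Assembly factors, which build the complexes, were lower still. Of 39 looked up by symbol, 25 had a row, and the others are not covered here. Of the 25 with a row, 24 reached 1 RPKM and the median was 21.2 ± 0.999 RPKM. This was 2.28 ± 0.03 below the members and 2.59 ± 0.07 below the structural subunits on the log2 scale. Cox17, the copper chaperone of complex IV, was at 60.2 and 66.3 RPKM, and Uqcc, an assembly factor of complex III, at 57.6 and 67.7 RPKM. These 2 were the highest and could not be ordered, and Surf1 was listed at 0.

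Carriers that serve complex V varied. The phosphate carrier gene Slc25a3 was at 394 and 392 RPKM. The ADP and ATP carriers analysed here were much lower, with Slc25a5 at 48.8 and 43.2 RPKM and the muscle form Slc25a4 at 23.1 and 22.4 RPKM. Of the uncouplers, Ucp2 was at 23.4 and 20.6 RPKM, while Ucp1 and Ucp3 were listed at 0. Among the regulators Tfam, which maintains and transcribes mitochondrial DNA, was highest at 99.0 and 109 RPKM. Of the coactivators, Pprc1 was at 52.3 and 50.9 RPKM, Ppargc1b at 1.81 and 2.40 RPKM and Ppargc1a at 0.137 and 0 RPKM. Pprc1 was the highest of the 3 in both replicates.

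**Figure D5:**
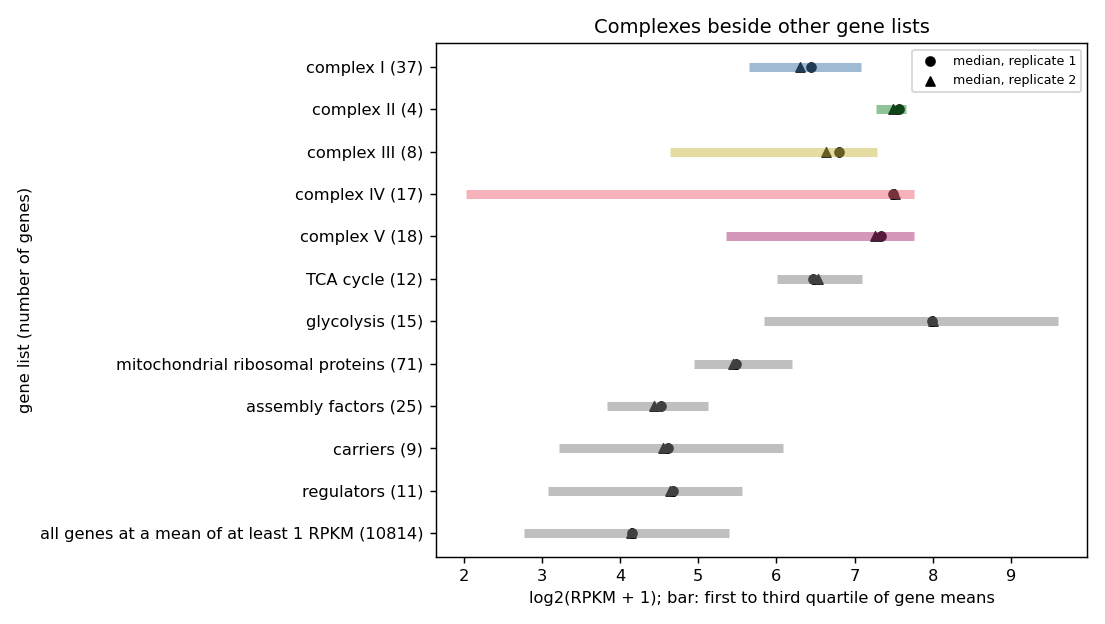
Median of each complex and of other gene lists on the log2(RPKM + 1) scale in replicate 1 (circles) and replicate 2 (triangles), with bars from the first to the third quartile of gene means. Glycolysis lies above every complex in its median, and mitochondrial ribosomal proteins, assembly factors, carriers and regulators lie below.

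Members were spread over 20 chromosomes in rn5, with 12 genes on chromosome 1, 12 on chromosome 7 and 3 on the X chromosome. Cox4nb and Cox4i1 are 147 bp apart on chromosome 19, on opposite strands, at 92.9 ± 3.16 and 260.0 ± 10.02 RPKM. RefSeq now calls Cox4nb Emc8, and its product is not part of complex IV.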

How the data were processed

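RNA sequencing values of 2 wild-type libraries were used. The authors deposited 1 table of RPKM, with positions on rn5. The submitters' processing notes name CASAVA 1.8, TopHat 1.4.0 and the builds rn5 and Rnor_5.0. How reads were counted, on which annotation, and how reads matching several loci were handled is not given in the sources used here. Libraries came from total RNA with the TruSeq RNA kit and gave paired 50 bp reads, per the labels' protocols.

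Rows of the same Entrez gene were summed. Genes with a mean of 1 RPKM or more were called detected, medians used log2(RPKM + 1), a scale that shrinks differences between low genes, and a 1.5-fold difference between replicates was marked. Read totals are those giving whole reads, within a relative tolerance of 3e-07, in the highest number of loci under 6000 bp (527 of 2700 in replicate 1, 525 of 2688 in replicate 2), so they rest on a minority of loci. Model lengths were searched from 300 to 1000 bp. Only 32 of 77 members above 0 in both replicates came out whole. Other ranges were tried first and lengths may be short by a common factor, so reads are approximate and show counting error only. On simulated data the search recovered 2 of 2 totals and 88.5% of 800 lengths. Only simulated lengths within the searched range were scored, so this share does not measure how well the deposited values were recovered.

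Members, gene lists and alternatives were chosen with earlier results of these data known. Values in each replicate were planned for the 3 highest and 3 lowest members of each complex. They were also planned for members under 1 RPKM, for isoform partners and for members past 1.5-fold. Further members are given by replicate outside this plan, and Ndufa5, Ndufb10 and Atp5j2 were named for their ratio between replicates. Genes that are not members came from the lists the text names. A gene that this work withholds is not reported here by name. The subunit classes, the rows matched by RefSeq identifier, the counts of named copies (by RefSeq symbol), the class medians without pseudogene rows or genes listed at 0, and the printed stretches were chosen after the values were seen. All 84 members matched the RefSeq gene table of GRCr8 by identifier, and the promoter sequences are from RefSeq. Software was pandas 2.3.3, numpy 2.4.6, matplotlib 3.10.9 and scipy 1.17.1 under Python 3.11.15.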

Additional observations from a re-analysis of the deposited data

How the results depend on the processing

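Values here are medians on the log2(RPKM + 1) scale unless named. Rescaling each library to a sum of 1000000 raised every median by construction, to 7.94 for all members (6.76 as reported) and to 7.56, 8.72, 7.91, 8.69 and 8.49 for complexes I to V. With structural subunits only, the values were 7.06 for all, 6.48 for complex I, 6.90 for complex III, 7.58 for complex IV and 7.40 for complex V. Without members listed at 0 they were 7.03 for all, 6.90 for complex III and 7.58 for complex IV. The mean over members gave 5.84 for all and 5.64, 7.31, 5.40, 5.54 and 6.40 for complexes I to V, which places complexes III and IV below complex I. With Ndufa4 in complex I, complex IV was at 7.54. With subunits matched by RefSeq identifier, added after seeing the data, complex III was at 6.90 and complex IV at 6.76. On the rescaled values, which are not RPKM, 62 members reached 100, against 44 at 100 RPKM or more as reported. That cutoff is a lower one, since rescaling raised the values, and the share of all genes past it is not given here. No member passed 1.5-fold between replicates with a minimum of 10 RPKM, against 3 as reported. For all genes at that minimum the share is not given here. Using 1 replicate alone gave from 6.73 to 6.78 for all members and from 74 to 75 members at 1 RPKM or more. Over all alternatives this count ran from 69 (of the 73 structural subunits) to 79 (of subunits matched by identifier). Centring replicate 2 on the median ratio of all detected genes moved the members' median log2 ratio from -0.02 to 0.0018. No paired analysis was possible because the series holds 1 group. At these depths a short gene under about 2 RPKM rests on few reads, and RPKM of genes with near-identical copies is uncertain.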
